A study of Homo sapiens with 6 samples.

Results

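The annexins measured here were 9 genes, ANXA1, ANXA2, ANXA3, ANXA4, ANXA5, ANXA6, ANXA7, ANXA10 and ANXA11, of 60780 rows in the gene table and of 16707 genes with enough counts to be tested. They were picked by gene symbol, with earlier results of the same RNA-seq comparison known, so the fold changes given for them describe these libraries and support nothing by themselves. All 9 passed the filter on low counts. ANXA1 rose in LX-2 cells given FGFBP1-CM, to 280.3 ± 20.3 CPM (counts scaled to a common library depth) from 203 ± 9.15 CPM in Vector-CM (SD, n = 3 each). None of the other 8 annexins passed the test.

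The RNA was from LX-2, an immortalized human hepatic stellate cell (HSC) line, after 24 h in conditioned medium of HCT116 colorectal cancer cells. In the Vector-CM group (3 libraries) the HCT116 cells carried an empty vector, and in the FGFBP1-CM group (3 libraries) they overexpressed FGFBP1, a secreted protein that releases FGF2 from the extracellular matrix. Both groups therefore shared the LX-2 line, medium from HCT116 cells and the culture time, and no library from LX-2 cells without tumor cell medium was analysed here. The labels do not say that the libraries came from separate cultures, so the p-values measure the spread between these libraries, which may be technical.

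Annexins are cytosolic proteins that bind acidic phospholipids, above all phosphatidylserine, when calcium rises. Their conserved core of annexin repeats docks on the membrane, while a variable N-terminal tail binds partners such as the S100 proteins. They work in membrane trafficking, exocytosis and the resealing of damaged plasma membranes, and several are also found outside the cell, where ANXA1 signals through formyl peptide receptors, ANXA2 gathers plasminogen and its activators, and ANXA5 covers exposed phosphatidylserine. HSCs are the retinoid-storing pericytes of the liver sinusoids, and upon injury they turn into contractile, matrix-secreting myofibroblasts, a state that relies on membrane traffic.

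Upstream sequence is shown for ANXA1, the member that passed the test, for ANXA10, the other member with no CpG there, and for ANXA2, which pairs a TATA box with a CpG-rich region. All 9 annexins had an entry among the RefSeq promoters (GRCh38.p14), which span 250 bases before to 50 after the start. The first listed window of each gene symbol was used, and any other start of a gene was not searched. For ANXA4 and ANXA11 this window lies outside the GENCODE 29 gene coordinates given below. The 250 bases before the start are printed in the direction of transcription, with capitals for matches to the TATA box letters TATAAA, to the GC box letters GGGCGG and to the AP-1 motif TGANTCA.
ANXA1, chr9:73151615-73151864, plus strand: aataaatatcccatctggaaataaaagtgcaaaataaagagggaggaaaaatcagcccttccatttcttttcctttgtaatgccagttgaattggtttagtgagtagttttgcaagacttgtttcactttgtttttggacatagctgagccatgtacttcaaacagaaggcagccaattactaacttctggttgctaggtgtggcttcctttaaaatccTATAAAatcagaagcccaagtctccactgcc
ANXA10, chr4:168092287-168092536, plus strand: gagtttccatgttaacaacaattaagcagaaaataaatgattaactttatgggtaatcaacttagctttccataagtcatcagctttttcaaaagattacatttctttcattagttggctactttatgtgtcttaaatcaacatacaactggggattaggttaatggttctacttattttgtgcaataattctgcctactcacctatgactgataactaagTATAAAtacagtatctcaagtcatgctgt
ANXA2, chr15:60397987-60398236, minus strand: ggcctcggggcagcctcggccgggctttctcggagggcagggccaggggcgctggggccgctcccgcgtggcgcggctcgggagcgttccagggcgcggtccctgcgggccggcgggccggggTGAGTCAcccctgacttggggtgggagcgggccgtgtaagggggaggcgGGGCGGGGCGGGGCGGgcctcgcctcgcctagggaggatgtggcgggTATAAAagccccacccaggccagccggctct
Over the whole windows, ANXA1 and ANXA10 had a GC content of 37.7% and 32.7% and 0 CpG, where the median of 35116 promoters was 58.7% GC and 14 CpG and 3.96% had no CpG. The other 7 annexins had 12 to 44 CpG, with ANXA4 at the upper end. TATAAA was found in ANXA1 and ANXA2 (31 bases before the start), ANXA10 (29 bases) and ANXA11 (61 bases), and in 11.53% of all promoters, with both strands searched for each motif. The GC box was found in ANXA2, ANXA4, ANXA5, ANXA6 and ANXA7 and in 44.954% of all promoters, and AP-1 in ANXA2 alone of the 9 and in 7.709% of all. GCGNGGGCG, a motif of EGR1, was in none of the 9 windows and in 9.434% of all promoters, and its letters overlap those of the GC box. Such matches describe the letters in these windows only.

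Library totals ranged from 14003780 to 18508113 counts, so that 3 counts, the limit a count of 0 allows, were 0.158 to 0.217 CPM. FGFBP1-CM replicate 1 lay farthest from the other 5 libraries on the first principal component, which held 49.5% of the variance. The same component also parted the media, with Vector-CM at -15.0, -11.4 and -15.7 and FGFBP1-CM at 33.5, 3.70 and 4.95. Of 9 stellate or fibroblast markers, 7 were at 1 CPM or more, among them COL1A1, PDGFRB and VIM, while LRAT, the retinol esterifying enzyme of quiescent HSCs, was at 0 in all 6 libraries. The summed level of the 9 markers was 2737 to 2917 CPM under Vector-CM and 2219 to 2606 CPM under FGFBP1-CM. Their log2 fold changes were below 0 for 7 of 7 tested, with none past the threshold, where 8235 of all 16707 tested genes were below 0. Of 8 markers of colorectal epithelium, 2 (KRT8 and KRT18) reached 1 CPM, and the sum of all 8 was 216 to 240 CPM under Vector-CM and 206 to 224 CPM under FGFBP1-CM. Of 5 hepatocyte markers 3 reached 1 CPM, with ALB and APOB past the edgeR threshold and lower in FGFBP1-CM, and the list summed to 35.9 to 37.0 CPM in the Vector-CM libraries against 17.3 to 26.3 CPM in the others. The sums of 3 endothelial and of 3 leukocyte markers stayed between 2.45 and 4.90 CPM. The labels name LX-2 as the only cells of these libraries, and the source of reads of other cell types' markers was not tested. The part of these shifts in the annexin values was not tested either. In bulk RNA of this line, fewer expressing cells and less RNA per cell cannot be told apart.

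Within the family, ANXA5 and ANXA2 were the most abundant transcripts per length, at 201 ± 7.57 and 184 ± 15.7 FPKM (fragments scaled by gene length and library depth, mean ± SD over the 6 libraries). Both stood at percentile 99.4 of the tested genes. ANXA5 was above ANXA2 in 6 of 6 libraries, although their ranges over the libraries overlapped. ANXA6 (60.8 ± 5.49 FPKM), ANXA7 (58.6 ± 2.77 FPKM) and ANXA1 (54.3 ± 10.8 FPKM) formed a middle tier whose neighbouring ranges overlapped. ANXA11 (11.2 ± 0.605 FPKM), ANXA4 (4.41 ± 0.369 FPKM), ANXA3 (1.56 ± 0.125 FPKM) and ANXA10 (0.448 ± 0.167 FPKM) followed, each in a range apart from its neighbours.

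**Figure D1:**
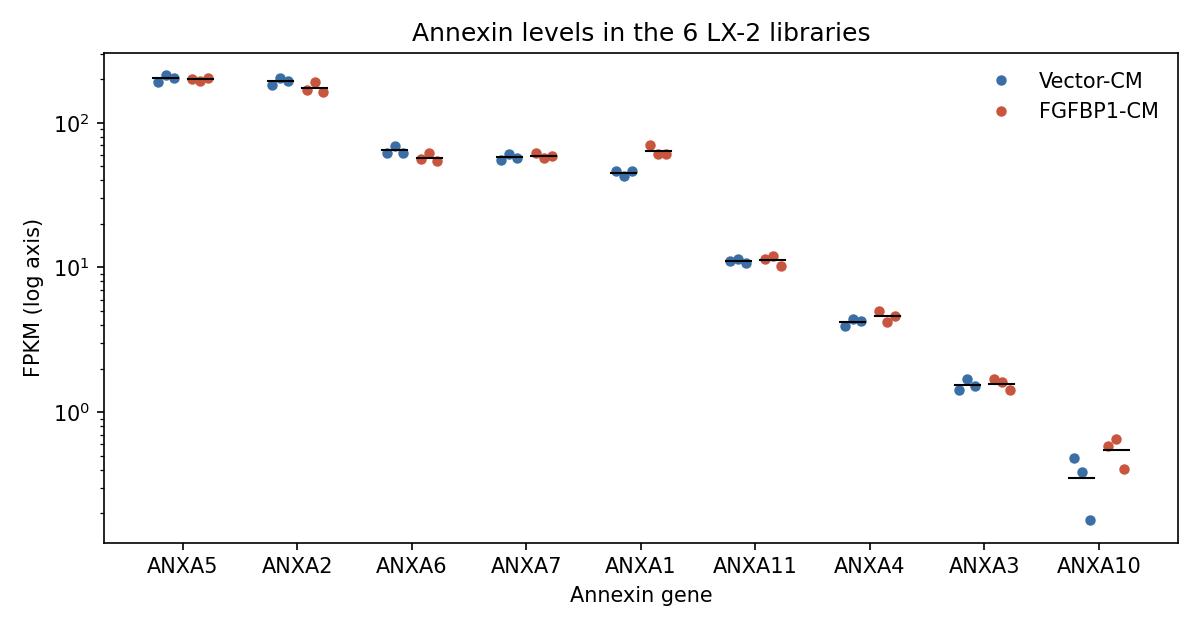
Deposited FPKM (log axis) of the 9 annexins in each of the 6 libraries, coloured by medium. Levels fell from about 201 FPKM for ANXA5 to 0.448 FPKM for ANXA10, and ANXA1 was the member whose libraries separated by medium.

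The order at the top depended on the length that the counts were divided by. The deposited FPKM values of ANXA2 imply a length of 11574 bp, whereas all its exons in GENCODE 29 cover 8824 bp and its principal transcript has 1676 bp. Per kilobase of the principal transcript, ANXA2 came first at 1275 ± 125 CPM, ahead of ANXA5 at 335 ± 15.1 CPM (mean ± SD, n = 6). ANXA1 moved from rank 5 to rank 4, past ANXA7, and ANXA4 from rank 7 to rank 6, past ANXA11. ANXA6, ANXA3 and ANXA10 kept ranks 3, 8 and 9.

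**Figure D2:**
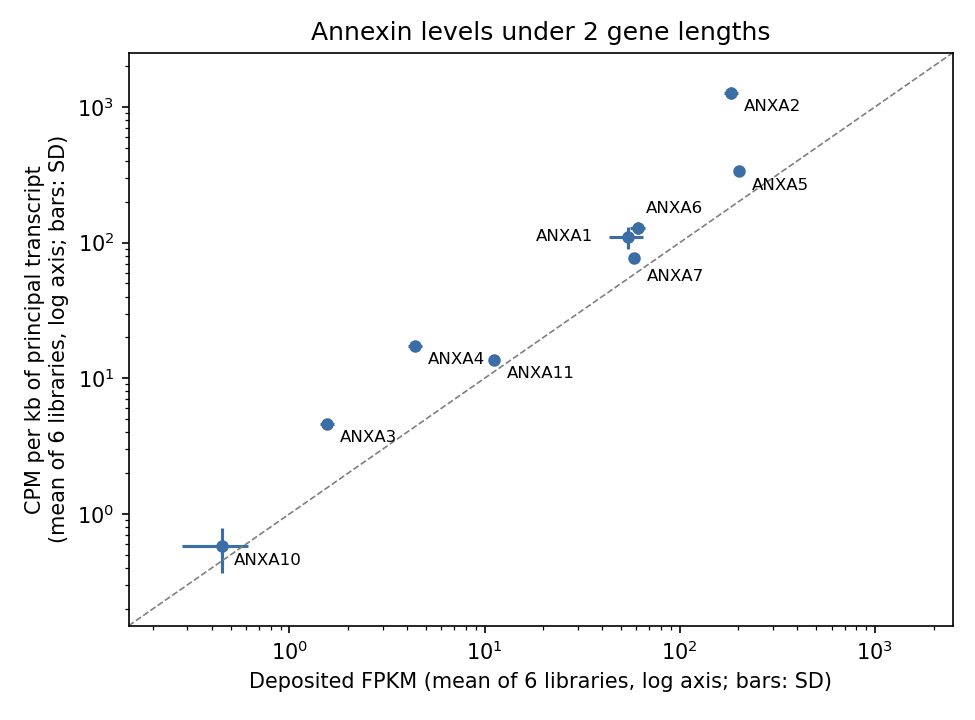
Mean level of each annexin over the 6 libraries as deposited FPKM (horizontal, log axis) and as CPM per kilobase of the principal transcript (vertical, log axis), with SD bars and a dashed line where both are equal. ANXA2 lies farthest above the line, at 1275 CPM per kilobase against 184 FPKM.

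ANXA1 encodes the glucocorticoid-regulated, anti-inflammatory annexin once named lipocortin. The gene (ENSG00000135046) lies on the plus strand at chr9:73151757-73170393 (GRCh38, GENCODE 29). ANXA1 was at 206, 193 and 211 CPM in Vector-CM replicates 1, 2 and 3 and at 304, 269.9 and 267 CPM in FGFBP1-CM replicates 1, 2 and 3. All libraries of FGFBP1-CM were above all libraries of Vector-CM, and the highest value was in replicate 1 of FGFBP1-CM. The change was 1.38-fold, a log2 fold change of 0.46 (SE 0.0695, edgeR quasi-likelihood test, adjusted p = 0.0249). Without FGFBP1-CM replicate 1, the library that stood apart, it was 0.40 (edgeR, adjusted p = 0.0147).

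The call for ANXA1 was lost under limma on log2 FPKM and whenever a Vector-CM library was left out, while its direction held. Without Vector-CM replicate 1, 2 or 3, its edgeR adjusted p was 0.0763, 0.176 or 0.206, and in these fits 6, 4 and 4 genes of all tested passed. ANXA1 transcripts have a GC content of 39.3%, and the 1341 tested genes within 1 percentage point of it had a median log2 fold change of 0.07, against 0.00 for all tested genes. After correction for GC content and length, ANXA1 had a log2 fold change of 0.39 (edgeR, adjusted p = 0.0376).

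**Figure D3:**
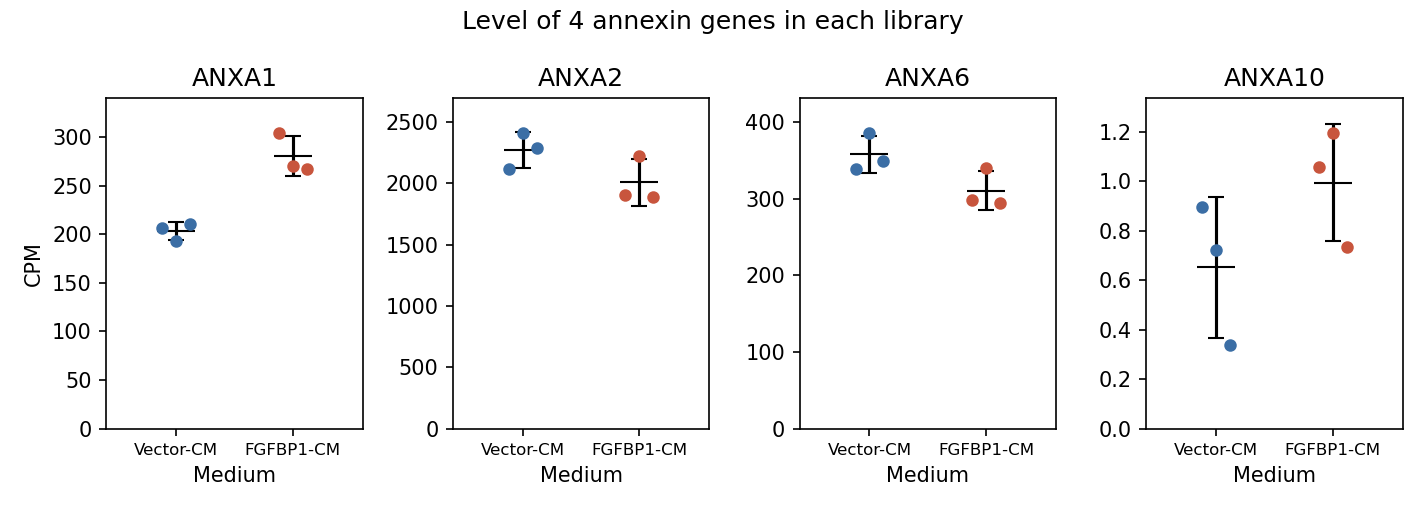
CPM of ANXA1, ANXA2, ANXA6 and ANXA10 in each library (points), with the group mean and SD (bars), for Vector-CM and FGFBP1-CM (linear axes from 0, one scale per gene). The 3 FGFBP1-CM points of ANXA1, from 267 to 304 CPM, lie above its Vector-CM points, and the groups overlap for the other genes shown.

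ANXA2, which forms a heterotetramer with S100A10 and binds plasminogen and tissue plasminogen activator at the cell surface, is encoded on the minus strand at chr15:60347134-60402883 (GRCh38, GENCODE 29). It was at 2114, 2405 and 2288 CPM in Vector-CM and at 1907, 2225 and 1886 CPM in FGFBP1-CM. The groups overlapped, since FGFBP1-CM replicate 2 was above Vector-CM replicate 1. The log2 fold change was -0.18 (SE 0.081), with an unadjusted p of 0.0465 and an adjusted p of 0.222 by edgeR.

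ANXA2 reads can be shared with ANXA2P2, a processed pseudogene on the plus strand at chr9:33624274-33625293 (GRCh38, GENCODE 29) that is a near copy of the ANXA2 coding stretch. The copy matched the ANXA2 transcript at 1004 of 1020 aligned positions (98.43%), with no gap. Of its 920 windows of one read length, 283 (30.8%) were found unchanged in ANXA2 transcripts. The stretch that follows is shown because it holds 5 of the 16 mismatches (capitals), at positions 321 to 380 of the ANXA2 transcript and 161 to 220 of ANXA2P2.
ANXA2: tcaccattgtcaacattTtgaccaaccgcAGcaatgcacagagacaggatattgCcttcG
ANXA2P2: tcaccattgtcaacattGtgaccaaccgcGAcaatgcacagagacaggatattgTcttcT
The pseudogene was counted at 139 ± 7.57 CPM under Vector-CM and 118 ± 6.30 CPM under FGFBP1-CM (log2 fold change -0.24, SE 0.068, edgeR adjusted p = 0.0910). Unlike for ANXA2, all its FGFBP1-CM libraries were below all its Vector-CM libraries, as in 13.2% of the tested genes. Its counts were 5.60% to 6.19% of those of ANXA2 in the 6 libraries. How reads that match both loci were assigned is not given in the sources used here, so the values of both are uncertain to that extent. The sum of both loci was 2408 ± 154 CPM under Vector-CM and 2123 ± 196 CPM under FGFBP1-CM.

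ANXA5 (minus strand, chr4:121667955-121697113, GRCh38) encodes the phosphatidylserine-binding protein used as a probe of dying cells. It was at 561, 630.4 and 613 CPM in Vector-CM and at 573, 573 and 591 CPM in FGFBP1-CM. The FGFBP1-CM values lay within the Vector-CM range, and the log2 fold change was -0.05 (SE 0.0654, edgeR adjusted p = 0.665). With ANXA5 as the family's most abundant transcript by FPKM, ANXA1 counts were 30.7% to 36.7% of ANXA5 counts in Vector-CM and 45.3% to 53.0% in FGFBP1-CM.

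ANXA6 (minus strand, chr5:151100712-151157882, GRCh38) encodes a large annexin with a duplicated core that is tied to endosomes and cholesterol handling. It was at 339, 385 and 349 CPM in Vector-CM and at 298, 339.7 and 294 CPM in FGFBP1-CM. FGFBP1-CM replicate 2 fell just inside the Vector-CM range. The log2 fold change was -0.20 (SE 0.075), with an unadjusted p of 0.0171 and an adjusted p of 0.147 by edgeR. As for ANXA2, replicate 2 was the highest library of its group in both media.

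ANXA7 (minus strand, chr10:73375101-73414076, GRCh38) encodes a protein first purified for aggregating secretory granules. It was at 158, 178 and 168 CPM under Vector-CM and 174, 162 and 168 CPM under FGFBP1-CM. Its groups overlapped fully, with a log2 fold change of 0.00 (SE 0.0651, edgeR adjusted p = 0.992). Exons of ANXA7 overlap the antisense gene AL512656.1 over 105 bp, and the strand setting of the counting is not given in the sources used here. ANXA11 (minus strand, chr10:80150889-80205572, GRCh38) encodes an adaptor between RNA granules and lysosomes. It was at 95.2, 99.0 and 94.3 CPM in Vector-CM and at 95.1, 102 and 86.8 CPM in FGFBP1-CM (log2 fold change -0.02, SE 0.0712, edgeR adjusted p = 0.894). ANXA4 (plus strand, chr2:69644425-69827100, GRCh38), known best from epithelia, was at 43.9, 49.6 and 48.2 CPM in Vector-CM and at 54.0, 46.4 and 50.8 CPM in FGFBP1-CM. Its groups overlapped as well, and its log2 fold change was 0.10 (SE 0.0789, edgeR adjusted p = 0.502).

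The remaining members were scarce. ANXA3 (plus strand, chr4:78551519-78610451, GRCh38) was at 6.98, 8.46 and 7.61 CPM in Vector-CM and at 8.07, 7.91 and 6.97 CPM in FGFBP1-CM, which span nearly the same range. Its log2 fold change was 0.00 (SE 0.131, edgeR adjusted p = 0.999). ANXA10 (plus strand, chr4:168092515-168187690, GRCh38), an annexin of the gastric mucosa, had 16, 10 and 5 counts in Vector-CM and 20, 19 and 12 counts in FGFBP1-CM. These are 0.651 ± 0.285 and 0.994 ± 0.235 CPM, above the limit that a count of 0 allows in every library. The groups overlapped, and the log2 fold change of ANXA10 was 0.58 with an SE of 0.364 (edgeR adjusted p = 0.374). It moved between 0.28 (without Vector-CM replicate 3) and 0.92 (without Vector-CM replicate 1) as single libraries were left out.

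Of the 9 annexins, 1 was past an adjusted p of 0.05 and higher in FGFBP1-CM by edgeR, where 0.120% of the tested genes were called in either direction and 0.0539% as higher and 0.0658% as lower. DESeq2 called ANXA1 alone of the members as well (adjusted p = 2.64e-06), where it called 4.75% of the 12215 genes that it gave an adjusted p, 2.57% as higher and 2.18% as lower. Since the members were chosen with this contrast known, nothing is read from these counts. Log2 fold changes were above 0 for 5 members and below 0 for 4, with a median of 0.00, as over all tested genes. The groups did not overlap for 1 member, ANXA1 (higher), where 12.8% of the tested genes had all FGFBP1-CM libraries above all Vector-CM libraries and 13.2% all below, 26.0% together. At an unadjusted p under 0.05, 3 members passed (ANXA1, ANXA2 and ANXA6), where 21.7% of the tested genes did.

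**Figure D4:**
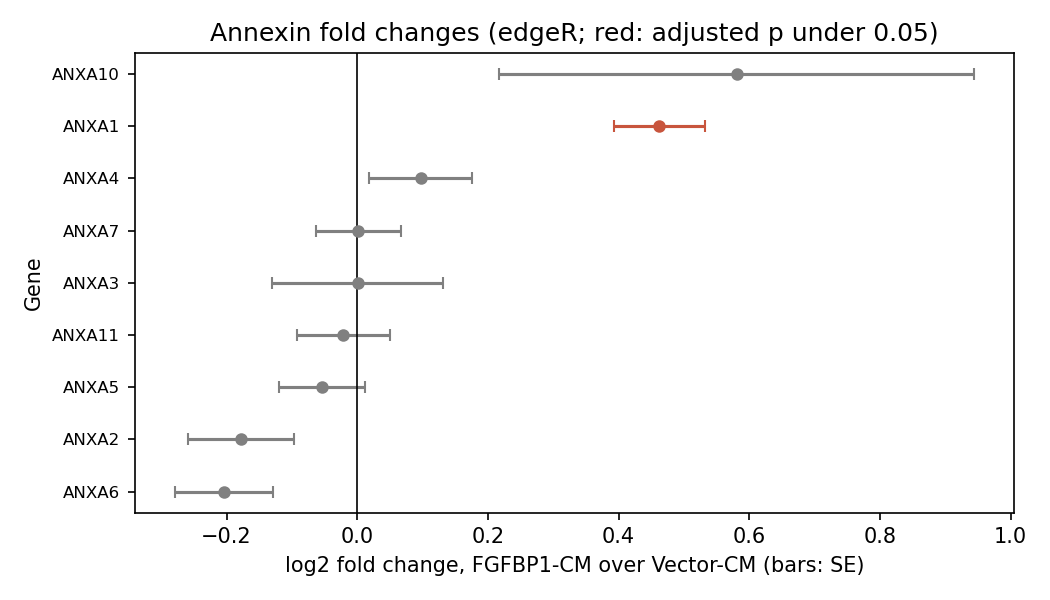
Log2 fold change of each annexin in FGFBP1-CM over Vector-CM from the edgeR fit, with bars of 1 SE. ANXA1 at 0.46 was the member past the adjusted threshold, ANXA2 and ANXA6 lay at -0.18 and -0.20, and ANXA10 had the widest bar (SE 0.364).

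The 9 annexins together were at 3751 ± 214 CPM under Vector-CM and 3498 ± 201 CPM under FGFBP1-CM (SD, n = 3 each), a log2 ratio of -0.10, and in FPKM at 581 ± 28.5 and 573 ± 14.1 (-0.02). These sums are given as values, with no test. ANXA2 made up 60.5% ± 0.473 of the summed CPM in Vector-CM and 57.3% ± 2.10 in FGFBP1-CM. CPM is not scaled by gene length. Of the summed FPKM, ANXA2 made up 33.3% ± 0.377 in Vector-CM and 30.5% ± 1.99 in FGFBP1-CM. The share of ANXA5 in the summed FPKM was 34.9% ± 0.348 and 34.9% ± 1.51. The share of ANXA1 in the summed CPM was 5.44% ± 0.491 in Vector-CM and 8.04% ± 0.831 in FGFBP1-CM, with no overlap between the groups. Against ANXA2, the counts of ANXA1 were 9.75%, 8.04% and 9.22% in Vector-CM and 15.9%, 12.1% and 14.2% in FGFBP1-CM. Both quantities restate the difference of ANXA1 itself. Their log2 ratios, 0.56 and 0.64, exceed its log2 fold change of 0.46, since the divisors were lower in FGFBP1-CM (-0.10 for the sum, -0.18 for ANXA2).

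Partners of the annexins were followed as 4 lists of 32 genes, of which 27 were tested. None passed the edgeR threshold, 9 had log2 fold changes above 0 and 18 below 0. Of all 16707 tested genes, 8472 were above 0 and 8235 below. Counts of partners past the threshold varied with the processing, from 0 to 3, and the genes concerned were S100A10, PLAT, SERPINE2 and VPS4B. The count was 3 with no filter beyond 1 count, where 1382 of 38002 tested genes were called. It was also 3 without FGFBP1-CM replicate 2, where 883 of 17133 were called.

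The EF-hand proteins, calcium-binding partners of annexin tails, had 6 of 6 genes tested and a median log2 fold change of -0.04. S100A10, the partner of ANXA2, was at 149.95, 177 and 173 CPM in Vector-CM and at 124, 158 and 122 CPM in FGFBP1-CM. As for ANXA2, replicate 2 of FGFBP1-CM lay above replicate 1 of Vector-CM. The log2 fold change of S100A10 was -0.31 (SE 0.0971, edgeR adjusted p = 0.106). S100A11, which binds ANXA1, had a log2 fold change of -0.02, and S100A6 one of -0.13, with edgeR adjusted p values of 0.884 and 0.340.

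The receptors through which extracellular ANXA1 signals were near the detection limit. FPR1 and FPR2 were each under 0.4 CPM in every library, FPR3 was at 0.264 to 0.614 CPM, and none of the 3 had enough counts to be tested.

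In the plasminogen system 5 of 6 genes were tested, with PLG itself at 0 in 5 of 6 libraries, and the median log2 fold change was -0.19. PLAT, tissue plasminogen activator, was at 324, 376 and 317 CPM under Vector-CM and 263, 313 and 238 CPM under FGFBP1-CM (log2 fold change -0.32, SE 0.0955, edgeR adjusted p = 0.0969). All FGFBP1-CM libraries were below all Vector-CM libraries. PLAUR, the urokinase receptor, was at 114, 117 and 112 CPM in Vector-CM and at 99.0, 105 and 96.2 CPM in FGFBP1-CM, again without overlap (log2 fold change -0.19, SE 0.0634, edgeR adjusted p = 0.121). SERPINE2, a serpin inhibitor of serine proteases, had a log2 fold change of -0.21 (edgeR adjusted p = 0.176), with overlapping groups. The groups did not overlap for 2 of the 5, PLAT and PLAUR, both lower, where 13.2% of all tested genes had that order.

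Of 17 genes of membrane repair and trafficking 16 were tested, 6 with log2 fold changes above 0 and 10 below, and a median of -0.03. VPS4B, the ATPase that takes ESCRT-III filaments apart, was at 59.1, 62.0 and 56.1 CPM in Vector-CM and at 88.6, 71.1 and 63.5 CPM in FGFBP1-CM, without overlap (log2 fold change 0.34, SE 0.103, edgeR adjusted p = 0.103). CAVIN1, a coat protein of caveolae, had a log2 fold change of -0.16 (edgeR adjusted p = 0.176), also without overlap. The groups thus did not overlap for 1 of the 16 as higher and 1 as lower. Of all tested genes, 12.8% were wholly higher and 13.2% wholly lower. CAPN2, a calpain subunit, and ANO6, a phospholipid scramblase, had overlapping groups and log2 fold changes of 0.10 and -0.06, with edgeR adjusted p values of 0.407 and 0.627.

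**Figure D5:**
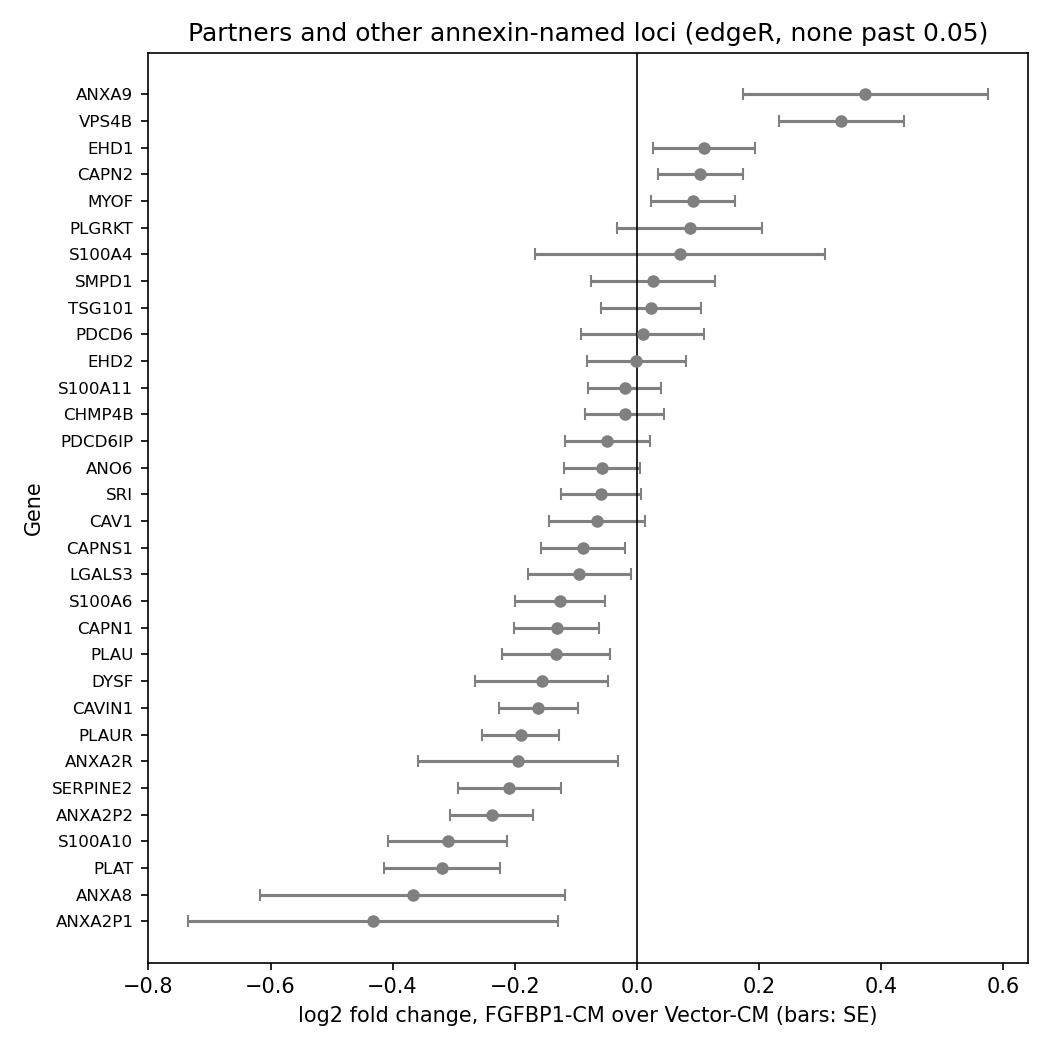
Log2 fold change in FGFBP1-CM over Vector-CM of the tested partner genes and other annexin-named loci with at least 1 CPM, from the edgeR fit, with bars of 1 SE. VPS4B at 0.34 and ANXA9 at 0.37 lay highest, and PLAT at -0.32 and S100A10 at -0.31 were the lowest partners.

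Of 8 other loci named for annexins, 6 were tested and none passed. ANXA9, an annexin without the usual calcium sites, was at 2.55 ± 0.0829 CPM under Vector-CM and 3.30 ± 0.637 CPM under FGFBP1-CM (log2 fold change 0.37, SE 0.200, edgeR adjusted p = 0.295). ANXA2R, annexin A2 receptor, and the pseudogene ANXA2P1 had log2 fold changes of -0.19 and -0.43, with edgeR adjusted p values of 0.517 and 0.431. The groups did not overlap for 2 of the 6 tested, ANXA2P1 and ANXA2P2, both lower, where 13.2% of all tested genes had that order. ANXA8, at 1.41 to 2.96 CPM, has a near-identical copy, ANXA8L1, and how reads matching both were split is not given in the sources used here. ANXA13, the intestinal annexin, was at 0 in 4 of 6 libraries.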

How the data were processed

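RNA-seq libraries of LX-2 cells, 3 per group, were taken as deposited. Per the labels, the authors aligned reads with HISAT2 2.0.5 and counted them with featureCounts 1.5.0-p3. The deposited counts are whole fragments per gene without normalization, and the deposited FPKM values were made by the authors from these counts, with the same length for a gene in every library. The labels name hg18, whereas 96.3% of the Ensembl IDs are in GENCODE 29 (GRCh38), which was used for coordinates and lengths. The labels describe ribosomal RNA depletion, and the methods name poly(A) selection too. The authors' own fold changes and p-values in the table were not used.

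CPM and fold changes were computed with edgeR 4.0.16 in R 4.3.3 (TMM scaling, filterByExpr, quasi-likelihood F-test, Benjamini-Hochberg adjustment over 16707 genes, threshold 0.05). The SE is the log2 fold change divided by the square root of F. Rows with the authors' own identifiers numbered 175. The procedure was run on simulated counts with changes larger than that of ANXA1, so that run does not bear on the call for ANXA1. The alternatives tried were scaling by RLE or by library size alone, tests of every gene with a count or of genes with a mean of 1 CPM, DESeq2 1.42.0, limma 3.58.1 on log2(FPKM + 1) and log2(FPKM + 0.1), a block for replicate number, a loess correction for GC and length (span 0.3), and leaving out each library. Level per principal transcript and summed FPKM were added after the data were seen.

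Each pair of libraries of a group differed by more than sampling noise, so none were merged. Count limits cover counting error only. Members and lists were chosen with earlier results of these data known. All members are named. An item of the plasminogen list is not reported here. Of each partner list, the text names the genes past the threshold, the 3 with the highest mean CPM and the 2 with the largest absolute log2 fold change at 1 CPM or more, and other genes where a sentence needs them. Likeness was the root mean square difference of centred log2 CPM over the 6 libraries.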

Additional observations from a re-analysis of the deposited data

How the results depend on the processing

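Under 16 alternatives, the log2 fold change of ANXA1 stayed between 0.39 and 0.50 and its call held in 11, with adjusted p values from 3.23e-08 (no filter beyond 1 count) to 0.206. It was lost under limma on log2(FPKM + 1) and log2(FPKM + 0.1) (adjusted p = 0.143 and 0.135), where 0 members passed, and without each Vector-CM library, so that the number of members called ranged from 0 to 1 over the libraries left out. ANXA3 reversed to -0.0720 under the GC and length correction, to -0.0721 with the block added and to -0.00229 under DESeq2, and ranged from -0.0672 to 0.0721 over the libraries left out. ANXA7 reversed to -0.0493 under the GC and length correction and to -0.0477 with the block added, and ranged from -0.0381 to 0.0425. ANXA11 reversed to 0.0124 under library size only and to 0.00868 and 0.00917 under limma, and ranged from -0.0800 to 0.0377. None of these reversals was near the threshold, and the cause was not tested. ANXA10 was given no adjusted p by DESeq2, and it fell below the filter at a mean of 1 CPM. Over the libraries left out its log2 fold change lay between 0.28 and 0.92, and limma on log2(FPKM + 1) gave 0.20. The summed CPM kept a log2 ratio below 0, from -0.15 to -0.06 over the libraries left out.

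Partner genes past the threshold numbered 3 with no filter beyond 1 count (S100A10, PLAT and VPS4B), 1 under DESeq2, 1 with the replicate block and 1 with the GC and length correction and the block (PLAT each time), and 0 to 3 over the libraries left out, with 3 (S100A10, SERPINE2 and PLAT) without FGFBP1-CM replicate 2. Without FGFBP1-CM replicate 3 it was 1 (VPS4B). Of 16707 tested genes, edgeR called 20, RLE scaling 38, the GC and length correction 48 (88 with the block), and limma 1. DESeq2 called 580 of the 12215 genes that it gave an adjusted p. The fit with no filter beyond 1 count called 1382 of 38002 genes, and that at a mean of 1 CPM 11 of 15027. Leaving out a Vector-CM library gave 4 to 6 calls, of 17084 to 17234 genes tested. Leaving out FGFBP1-CM replicate 1, 2 or 3 gave 72 of 17094, 883 of 17133 or 402 of 17155. Between libraries that share replicate number 1, 2 or 3, deviations correlated at -0.118, -0.022 and 0.148 over 15033 genes. With 3 libraries per group, these values cannot decide whether libraries of the same number belong together. Adding a block for replicate number raised the calls from 20 to 90. The log2 fold change of ANXA1 was then 0.46 (edgeR, adjusted p = 0.0365).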

Other observations

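The tested genes most like ANXA5 over the 6 libraries were NUDT4, BFAR, RAB2A, SSR4 and RPL19, of 9882 with a mean of at least 10 CPM. Their root mean square differences of centred log2 CPM from ANXA5 were 0.00719 to 0.0151, where the median over all genes compared was 0.115. ANXA5 itself varied little, by a root mean square of 0.0590 about its mean. RAB2A encodes a small GTPase of traffic between the endoplasmic reticulum and the Golgi, SSR4 a subunit of the translocon-associated complex, and RPL19 a protein of the large ribosomal subunit. The corresponding genes for ANXA1, chosen after its values were seen, were ZNF195, BCAS2, ZNF292, ZNF81 and PHF14, at 0.0366 to 0.0604 with a median of 0.251. ANXA1 varied by 0.240 about its mean. Both sets were picked for the smallest differences, so values below the median were fixed by that choice. All points share their 6 libraries and their depth, and no test was made.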
